A study of Homo sapiens with 4 samples.

Results

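The miR-378 family and miR-422a were measured in 4 stable transfectants of 2 human colonic adenocarcinoma lines, HT-29 and LS174T, with 1 Exiqon miRNA array per transfectant. The members were chosen by name from the array's probe list, because an earlier analysis of the same arrays had shown several of them to move in opposite directions in the 2 lines. They are 5 of the array's 1276 human miRNA probes: hsa-miR-378, hsa-miR-378*, hsa-miR-378b, hsa-miR-378c and hsa-miR-422a, written below without the species prefix. The direction of their change within each line is therefore given as a description, without a test. In each line, the shRNA-Ascl2 cells carried an EGFP plasmid with an shRNA against Ascl2, a basic helix-loop-helix transcription factor of Wnt signalling and of intestinal stem cells. The shRNA-Ctr cells carried the EGFP plasmid with no insert, so the 2 kinds of cells also differ in having any shRNA at all. All 4 transfectants were kept under G418 selection and harvested after several passages, and whether the RNA came from 1 clone or from several pooled clones was not stated. Ascl2 mRNA is not measured by a miRNA array, so the knockdown could not be checked on these arrays. The paper reported less Ascl2 mRNA by real-time PCR, and less protein by western blot, in the shRNA-Ascl2 transfectants of both lines.

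A miRNA is a short RNA that pairs with mRNAs, mainly through its seed (bases 2 to 8), and lowers their stability or translation. The miR-378a hairpin is best known from metabolism. It lies within PPARGC1B, the gene of the transcriptional coactivator PGC-1β, and its 2 arms give miR-378 (the 3′ arm, now miR-378a-3p) and miR-378* (the 5′ arm, now miR-378a-5p). In mouse, the 2 arms restrain mitochondrial metabolism and energy use, and in human breast cancer cells miR-378* lowers the estrogen-related receptor ERRγ and GABPA, a step towards aerobic glycolysis. In human hepatocytes, miR-422a and miR-378 target CYP7A1, the rate-limiting enzyme of bile acid synthesis. In colorectal tumours, miR-378 and miR-422a are usually described as lower than in normal mucosa.

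The mature sequences are shown because 4 of the 5 members share a seed while their ratios differed. Sequences and positions are from RefSeq on GRCh38.p14, where all 5 members were found, and the seed is in capitals.
miR-378: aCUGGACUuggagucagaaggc
miR-378b: aCUGGACUuggaggcagaa
miR-378c: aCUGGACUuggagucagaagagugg
miR-422a: aCUGGACUuagggucagaaggc
miR-378*: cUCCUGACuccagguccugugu
In the same table, 7 mature miRNAs have the seed CUGGACU, and 4 of them had a probe on the array. The seed of miR-378* was held by 1 miRNA. Counted from 1 at the 5′ end and with miR-378 as the reference, miR-378b has 1 substitution (U14G) over the 19 bases compared, miR-422a has 2 (G10A and A12G) over 22 bases, and miR-378c is identical over the first 20 bases, then has G21A and C22G and 3 more bases. The sequences of the capture probes were not used here, so how far the signals of miR-378, miR-378b, miR-378c and miR-422a share RNA from one another was not tested.

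miR-378 and miR-378* come from 1 precursor, the MIR378A hairpin, shown here with both arms in capitals.
MIR378A: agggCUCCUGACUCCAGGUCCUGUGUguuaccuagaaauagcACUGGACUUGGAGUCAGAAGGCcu
The hairpin lies at chr5:149732825-149732890 on the plus strand, inside PPARGC1B, and its arms are separated by a loop of 16 bases. miR-378* lies at chr5:149732829-149732850 and miR-378 at chr5:149732867-149732888. miR-378b lies at chr3:10330262-10330280 on the plus strand, inside ATP2B2, the gene of a plasma membrane calcium pump. miR-378c lies at chr10:130962634-130962658 and miR-422a at chr15:63870989-63871010, both on the minus strand, and neither lies inside a gene other than its own in the table. Apart from the 2 arms of MIR378A, the members are thus on separate chromosomes. Whether PPARGC1B or ATP2B2 changed was not measured.

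Intensities are foreground minus local background, averaged over the 4 spots of a probe and brought to 1 scale over the 4 arrays, in arbitrary units. Each SD is over the 4 spots on 1 array (n = 4 spots, 1 array) and covers technical spread on that array alone. A miRNA was called up-regulated in shRNA-Ascl2 cells at a ratio to shRNA-Ctr cells of 2 or more, and down-regulated at a ratio of 0.5 or below, provided that its signal exceeded 50 on the brighter array. The 7 negative control probes reached at most 53.7 and 49.9 in HT-29 and 31.1 and 69.1 in LS174T (shRNA-Ascl2 first), so signals near 50 are at the edge of detection. Where a signal was below 50 it was raised to 50, which turns the ratio into a bound. Since intensity also depends on the probe, ratios were compared between members and levels were not.

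A pair of features of the arrays touches every value below. In LS174T, the 42 spike-in controls above 50 on both arrays had a median 9.22-fold higher signal on the shRNA-Ascl2 array than on the shRNA-Ctr array, and 39 of them were past 2-fold. In HT-29 the median of 46 such controls was 1.01. The epithelial miR-200 family moved in the same direction as the LS174T spike-ins, with 5 of 5 markers up-regulated by 5.96-fold to 9.19-fold. The intestinal miR-192 (30.4-fold) and miR-194 (17.4-fold) did so too. Of all tested probes in LS174T, 27.3% were up-regulated. The intestinal miR-215 was dim, at 55.5 with shRNA-Ascl2 and 20.8 with shRNA-Ctr in LS174T, and was called up-regulated there. In HT-29 none of these miRNAs was called, and miR-215, at -2.17 and 15.2, was not tested. The other feature is the place on the array. Landmark spike-ins are spotted all over the array, and their signal in blocks 19 to 36 over that in blocks 1 to 18 was 0.582 for shRNA-Ascl2 and 1.27 for shRNA-Ctr in HT-29. In LS174T this quotient was 1.02 for shRNA-Ascl2 and 0.724 for shRNA-Ctr. Every member has 2 spots in each block range, so the members' ratios are also given per block range. With 1 array per condition, a change of the cells and a difference between 2 arrays cannot be told apart. Nor can fewer cells with a miRNA and less of it per cell, since RNA was taken from whole cultures.

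miR-378 was at 662 ± 509 in shRNA-Ascl2/HT-29 cells and 1853 ± 620 in shRNA-Ctr/HT-29 cells. It was at 3036 ± 822 in shRNA-Ascl2/LS174T cells and 996 ± 41.4 in shRNA-Ctr/LS174T cells. The signal was thus lower with shRNA-Ascl2 in HT-29 (ratio 0.357) and higher in LS174T (ratio 3.05), and both passed 2-fold. Between the arrays of HT-29, the spots overlapped, from 190 to 1215 against 1046 to 2559. Between those of LS174T they did not, from 1901 to 3655 against 947 to 1038.

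The HT-29 ratio of miR-378 depended on the place of the spots. In block 17, the shRNA-Ascl2/HT-29 spots were at 1215 and 972 and the shRNA-Ctr/HT-29 spots at 2559 and 1046. In block 35, they were at 271 and 190 against 1905 and 1900. The ratios of spots at the same place accordingly ran from 0.0998 to 0.929, all below 1. From blocks 1 to 18 alone the ratio was 0.524, and from blocks 19 to 36 alone it was 0.143. After correcting spots for their block's landmark signal the ratio was 0.636. Neither 0.524 nor 0.636 passes 2-fold. The landmark signal of block 35, relative to the array's median, was 0.275 with shRNA-Ascl2 and 0.822 with shRNA-Ctr in HT-29. In LS174T, spots at the same place had ratios from 2.01 to 3.74, and the ratio was 3.92 from blocks 1 to 18 alone and 1.93, short of 2-fold, from blocks 19 to 36 alone.

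miR-378c, identical to miR-378 over its first 20 bases, had larger changes than miR-378 and miR-378b, the other members above 50 on all 4 arrays. It was at 175 ± 128 in shRNA-Ascl2/HT-29 cells against 775 ± 163 in shRNA-Ctr/HT-29 cells, a ratio of 0.227. In LS174T the order was the opposite, with 1250 ± 120 in shRNA-Ascl2/LS174T cells against 156 ± 36 in shRNA-Ctr/LS174T cells, a ratio of 8.01. The spots of the 2 arrays did not overlap in either line, from 62.6 to 323 against 639 to 1004 in HT-29 and from 1102 to 1388 against 121 to 201 in LS174T. Spots at the same place had ratios from 0.0920 to 0.322 in HT-29 and from 6.39 to 10.1 in LS174T.

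The call of miR-378c did not rest on 1 block range. In HT-29 the ratio was 0.275 in blocks 1 to 18, 0.122 in blocks 19 to 36 and 0.337 after the landmark correction. In LS174T these ratios were 7.86, 7.13 and 9.18. In HT-29 miR-378c had the 7th lowest ratio of 612 tested miRNA probes, and miR-378 the 12th lowest. In LS174T their rises ranked 32nd and 119th of 681. Nearer the middle of this order in LS174T, miR-422a and miR-378b ranked 258th and 509th.

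miR-378*, the other arm of the miR-378 hairpin, was dim. It was at 15.6 ± 13.4 in shRNA-Ascl2/HT-29 cells, 52.6 ± 8.47 in shRNA-Ctr/HT-29 cells, 141 ± 38.5 in shRNA-Ascl2/LS174T cells and 2.64 ± 14.5 in shRNA-Ctr/LS174T cells. Only the shRNA-Ascl2/LS174T array was clearly above the negative controls. In LS174T, all 4 spots of the shRNA-Ascl2 array (92.4 to 178) lay above all 4 of the shRNA-Ctr array (-19.0 to 10.5), and the level was at least 2.83-fold higher with shRNA-Ascl2 (at least 3.44-fold from blocks 1 to 18 and 1.97-fold from blocks 19 to 36). In HT-29 the measured signals met the rule for a fall, but with the dim array raised to 50 the level was at least 1.05-fold lower, so the fall has no size. From blocks 1 to 18 alone the log2 ratio on this scale was -0.32, and in blocks 19 to 36 both arrays were below 50. The landmark correction brought the HT-29 bound to a ratio of 0.318, with a landmark signal of 0.164 in block 32 for shRNA-Ctr/HT-29. The 2 spots of miR-378* in that block, at 52.8 and 45.7, showed no such drop beside those of block 14 at 47.4 and 64.5.

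miR-422a was at 41.2 ± 10.2 in shRNA-Ascl2/HT-29 cells and 122 ± 18.8 in shRNA-Ctr/HT-29 cells, at least 2.44-fold lower. The spots did not overlap, from 30.8 to 52.9 against 112 to 150, and spots at the same place had ratios from 0.271 to 0.413. It was at 120 ± 21.6 in shRNA-Ascl2/LS174T cells and 106 ± 26.0 in shRNA-Ctr/LS174T cells. The LS174T ratio was 1.13, with overlapping spots from 106 to 152 and from 82.3 to 142. By block range, blocks 1 to 18 first, the ratios with values below 50 raised to 50 were 0.341 and 0.482 in HT-29 and 1.14 and 0.962 in LS174T. miR-422a was therefore lower with shRNA-Ascl2 in HT-29 and not called in LS174T. In HT-29 the call did not hold without background subtraction or with a model-based background (normexp), and after the landmark correction the bound was a ratio of 0.520.

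miR-378b differed from miR-378 by 1 substitution and was not called in either line. It was at 81.8 ± 22.1 against 126 ± 35.4 in HT-29 (ratio 0.652) and at 118 ± 14.8 against 202 ± 40.6 in LS174T (ratio 0.586), for shRNA-Ascl2 against shRNA-Ctr cells. The ratios of spots at the same place were below 1 at all 4 places in both lines, from 0.471 to 0.948 in HT-29 and from 0.478 to 0.684 in LS174T. By block range, blocks 1 to 18 first, its ratios were 0.617 and 0.675 in HT-29 and 0.581 and 0.514 in LS174T. It is the member just outside the 2-fold threshold, and the only one whose LS174T ratio was below 1.

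**Figure D1:**
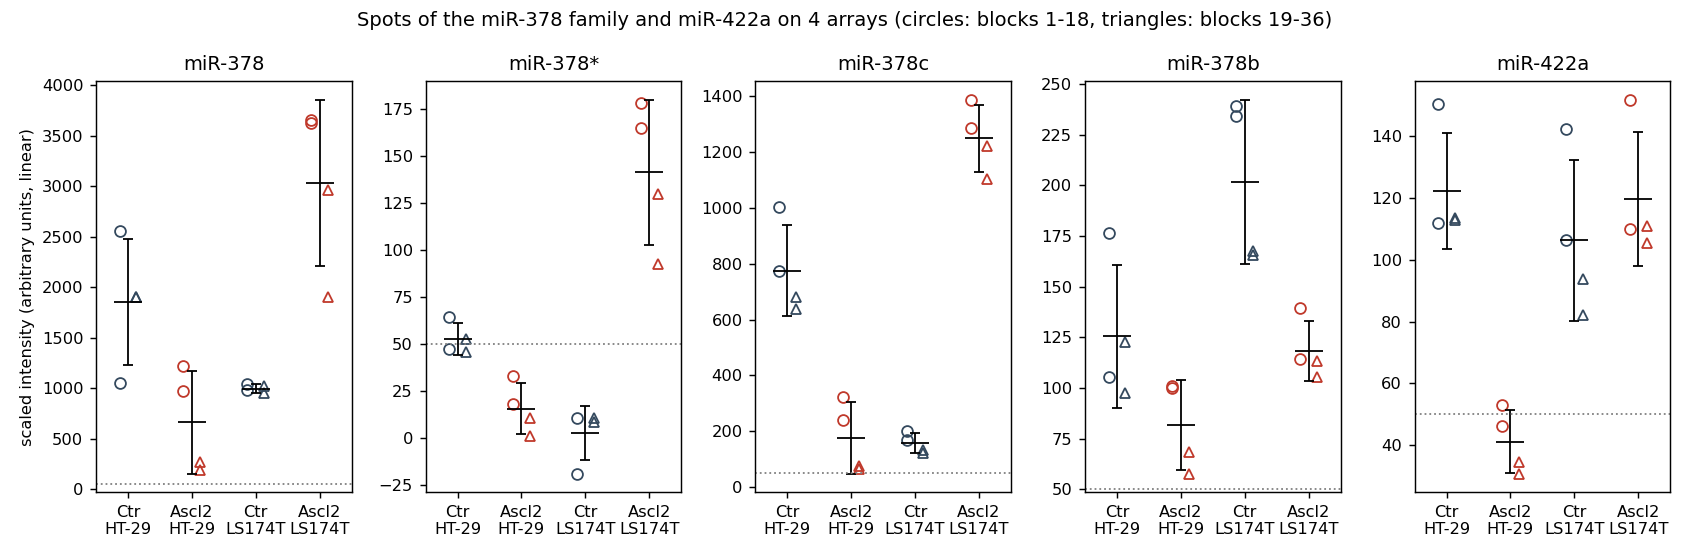
Scaled intensity (arbitrary units, linear axis starting at a different value in each panel) of each spot of the 5 members on the 4 arrays, with the mean and SD over 4 spots in black and the limit of 50 dotted. Spots of miR-378 and miR-378c with shRNA-Ascl2 lie low in HT-29 and high in LS174T, and in shRNA-Ascl2/HT-29 cells the spots of blocks 19 to 36 (triangles) lie below those of blocks 1 to 18 (circles).

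In HT-29, 4 of the 5 members were called down-regulated and 0 up-regulated, where 8.82% of the 612 tested probes were down-regulated and 3.92% up-regulated. With signals below 50 raised to 50, miR-378* was no longer called and 6.21% of all probes were down-regulated and 2.45% up-regulated. The median log2 ratio, with values below 50 raised to 50, was -1.29 over the members and -0.013 over all tested probes. In LS174T, 3 members were up-regulated and 0 down-regulated, where 27.3% of 681 tested probes were up-regulated and 25.1% down-regulated. Raising signals below 50 to 50 left the 3 calls as they were, with 23.6% and 17.8% of all probes called. The medians were 1.50 over the members and -0.18 over all tested probes. These counts and medians follow from how the members were chosen and are not evidence of the direction.

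Called down-regulated in HT-29 and up-regulated in LS174T were miR-378, miR-378* and miR-378c, 3 of the 5 members. Of the 579 probes tested in both lines, 32 (5.53%) had this pattern. Of those 32 probes, 15 (46.9%) had their spots in blocks 17, 18, 35 and 36, the blocks of miR-378 and miR-378c, against 64 of 579 (11.1%) of the probes tested in both lines. Both counts include miR-378 and miR-378c themselves, which were chosen with this pattern known. The difference of the log2 ratios, LS174T minus HT-29, was 5.14 for miR-378c, the 7th largest, 3.09 for miR-378, 1.57 for miR-378*, 1.46 for miR-422a and -0.15 for miR-378b. Its median over the 579 probes was -0.14. With 1 array per condition the difference between the lines could not be tested.

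**Figure D2:**
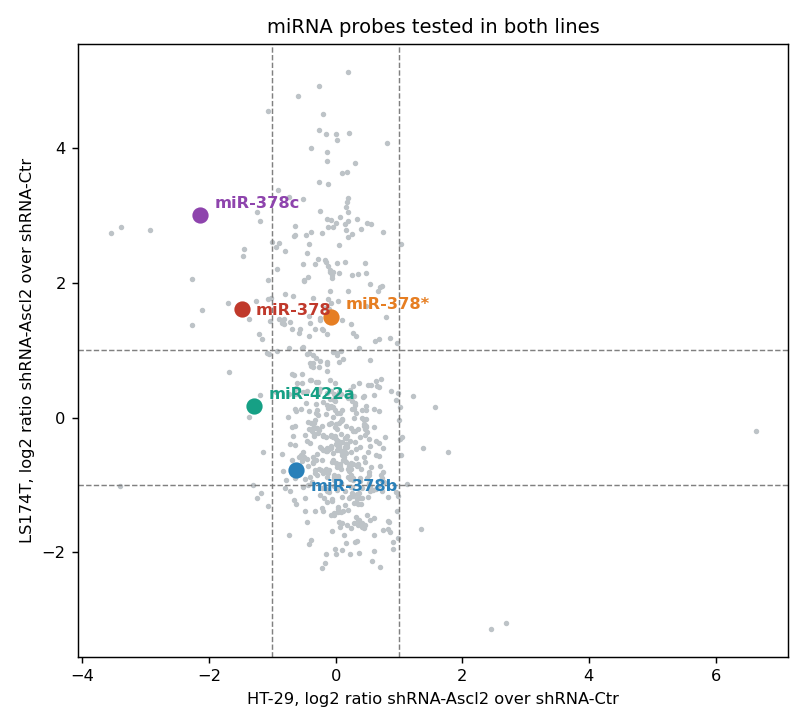
The log2 ratio of shRNA-Ascl2 over shRNA-Ctr in HT-29 (x axis) and LS174T (y axis) for the 579 miRNA probes tested in both lines (grey), values below 50 raised to 50, with the members in colour and 2-fold dashed. miR-378 and miR-378c lie past 2-fold in the upper left corner, at -1.48 and 1.61 and at -2.14 and 3.00, and miR-378b lies inside both thresholds.

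Beside the members, the other probes of the same blocks were looked at, first in HT-29. In blocks 17 and 35, which hold miR-378, 9 of 37 other tested probes were down-regulated, with a median log2 ratio of -0.38. In blocks 18 and 36, which hold miR-378c, 10 of 29 were down-regulated, with a median of -0.51. In blocks 16 and 34 (miR-422a) and in blocks 14 and 32 (miR-378*), 1 of 27 was down-regulated in each, and in blocks 11 and 29 (miR-378b) 0 of 30. In LS174T, up-regulated neighbours were 13 of 40 for miR-378, 11 of 31 for miR-378c and 13 of 31 for miR-378*. They were 4 of 29 for miR-422a and 8 of 35 for miR-378b, beside 27.3% of all tested probes. In HT-29, miR-378 and miR-378c thus lay among neighbours that were called down-regulated more often than the 8.82% of all probes. The part of the place on the array in their ratios was not tested beyond the block ranges and the landmark correction.

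**Figure D3:**
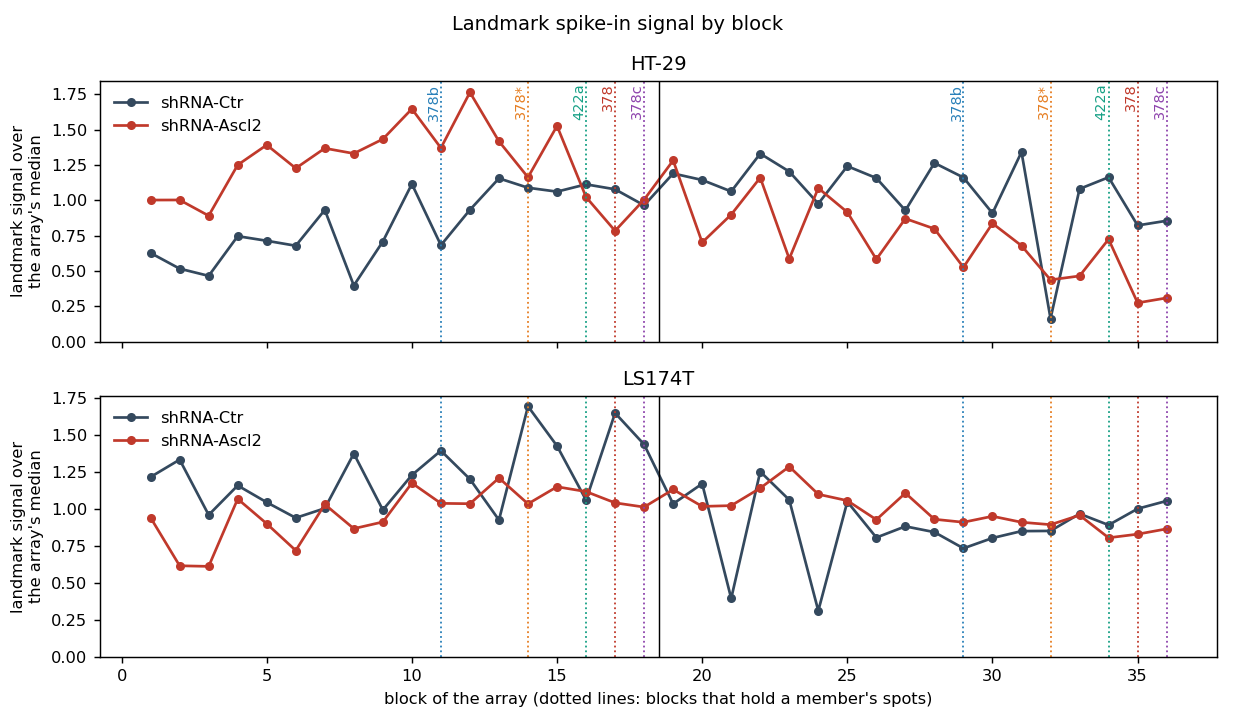
Landmark spike-in signal in each block, divided by the array's median (y axis), against the block number (x axis), for shRNA-Ctr and shRNA-Ascl2 arrays of each line, with the members' blocks dotted. For shRNA-Ascl2/HT-29 the signal falls to 0.275 in block 35, and block 32 drops to 0.164 with shRNA-Ctr.

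The ratios in LS174T turned on the scaling. All members were scaled by the median of miRNA probes above 50 on all 4 arrays. When the spike-ins were used in its place, the median log2 ratio over all tested probes in LS174T moved from -0.18 to -2.32, and miR-378 changed from 1.61 to -1.57, miR-378c from 3.00 to -0.17 and the uncalled miR-422a from 0.17 to -3.01. miR-378b was then at -3.95, and it and miR-422a were called down-regulated, and miR-378* remained higher, at a bound of 0.62. miR-378 (-1.57), miR-378c (-0.17) and miR-378* (0.62) lay above the median of all probes under spike-in scaling, and miR-378b and miR-422a below it. That median is over the probes tested after spike-in scaling, with values below 50 raised to 50. It therefore did not move by the same amount as the members. The members' places beside the 2 medians are thus not comparable. In HT-29, under the same spike-in scaling, miR-378 was at -1.24 and miR-378c at -1.90, both still called. Scaling by 1 factor per array, as in both of these, moves all ratios of signals not raised to 50 by 1 common factor within a line. The order of the 4 members above 50 on both LS174T arrays (miR-378c highest, miR-378b lowest) therefore could not change between them. For miR-378* the LS174T values are lower bounds, so it was not ranked among them.

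**Figure D4:**
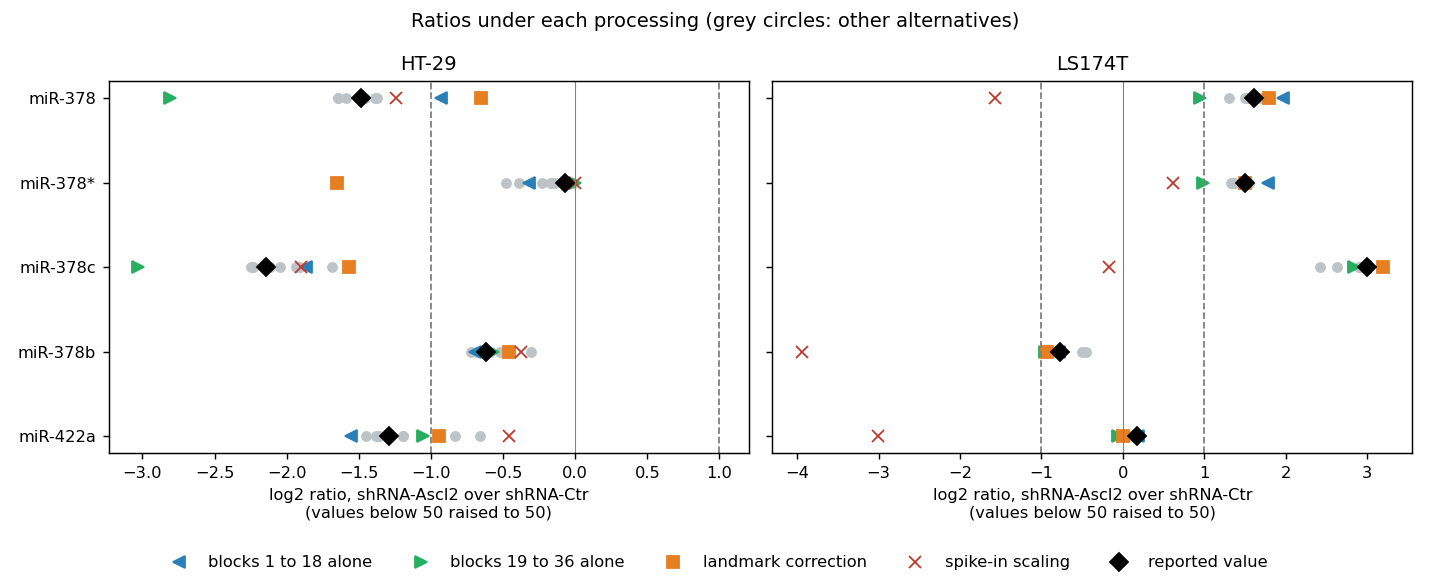
The log2 ratio of shRNA-Ascl2 over shRNA-Ctr of each member (values below 50 raised to 50) as reported (black diamond) and under each alternative processing, in HT-29 (left) and LS174T (right), with 2-fold dashed. miR-378c stays past 2-fold in HT-29 under every alternative shown, and in LS174T the spike-in scaling (cross) lies left of the reported value for every member.

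Averaged over the 2 vectors, the log2 level in LS174T minus that in HT-29 was 0.71 for miR-378*, 0.65 for miR-378, 0.61 for miR-378b, 0.53 for miR-422a and 0.26 for miR-378c, with values below 50 raised to 50. The levels were fitted with limma over 714 probes on all 4 arrays, with the vector as a term. Of all these probes 0 passed an adjusted p of 0.05, and 35 (4.90%) had an unadjusted p under 0.05. The 1 residual degree of freedom of this fit is the difference of the vector's effect between the lines, for which the members were chosen, so the fit is no test of the members and their differences are a description.

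Within each vector the lines compared differently. Among shRNA-Ascl2 cells, miR-378 was 4.59-fold and miR-378c 7.13-fold higher in LS174T than in HT-29. Among shRNA-Ctr cells, the same ratios were 0.538 and 0.202, lower in LS174T. For miR-378b, both vectors gave a higher level in LS174T, 1.45-fold and 1.61-fold. For miR-422a the bound was at least 2.39-fold higher among shRNA-Ascl2 cells, and among shRNA-Ctr cells the ratio was 0.870.

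By the pattern over the 4 arrays, the probe nearest to miR-378 among 654 human miRNA probes was miR-320d (distance 0.142 on the log2 scale after centring each probe on its mean), followed by miR-320b (0.564) and miR-302b* (0.645). miR-320d was at 567 with shRNA-Ascl2 and 1465 with shRNA-Ctr in HT-29 (ratio 0.387), and at 2466 and 895 in LS174T (ratio 2.76). Its spots lay in blocks 17 and 35, as did those of miR-378. The members themselves ranked lower in this order, miR-378* 15th, miR-422a 16th, miR-378c 38th and miR-378b 234th. Closeness over 4 arrays is a description, and these arrays share the block effects given above.

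Intronic miRNAs of other metabolic host genes were read beside the members, since PPARGC1B is such a gene. The list held 8 probes: miR-33a and miR-33b, which lie in the sterol regulators SREBF2 and SREBF1 and lower cholesterol export, miR-103 and miR-107, which lie in pantothenate kinase genes, and further strands of these. In HT-29, 0 of 6 tested were up-regulated and 1, miR-33b*, was down-regulated, from 59.8 to 28.4. In LS174T, 4 of 6 were up-regulated and 0 down-regulated, beside 27.3% and 25.1% of all tested probes. In shRNA-Ascl2 against shRNA-Ctr cells, miR-33a was at 5461 against 809 (6.75-fold), miR-33b at 7603 against 554 (13.7-fold), miR-103 at 5524 against 1504 (3.67-fold) and miR-33b* at 64.9 against -2.90. miR-107, at 1291 against 1126, was not called.

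A second list held 8 miRNAs that are usually lower in colorectal tumours, as miR-378 and miR-422a are. In HT-29, 3 were tested and 1, miR-195, was down-regulated, from 105 to 40.7. In LS174T all 5 that were tested were down-regulated (miR-143, miR-133a, miR-133b, miR-139-5p and miR-195), beside 25.1% of all tested probes, with miR-195 from 190 to 76.4. Signals of these 5 were at most 190 on either array. In shRNA-Ascl2/LS174T cells, miR-143 (26.4), miR-133a (8.80) and miR-139-5p (30.2) were below 50. They were tested through the shRNA-Ctr array alone and could not have been called up-regulated. With values below 50 raised to 50, none of these passes 2-fold, since at most 79.1 was reached with shRNA-Ctr. On that scale 17.8% of all tested probes were down-regulated. On the shRNA-Ctr/LS174T array, miR-143 (53.3) and miR-133a (54.3) did not exceed the highest negative control (69.1), so these calls are at the edge of detection. Of the viral miRNA probes, 42 were above 50 on both LS174T arrays and had a median ratio of 0.553.

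Markers of other cell types were not all dim. Of 7 muscle miRNAs, miR-1 was near 0 on all arrays (-19.8 to 0.224), while miR-206 (368 to 593) and miR-208b (226 to 1023) were above 50 on all 4. The 4 muscle miRNAs tested in HT-29 gave no calls. In LS174T 4 of 6 tested were down-regulated (miR-133a, miR-133b, miR-208a and miR-499-5p), beside 25.1% of all tested probes. In that line, miR-133a and miR-499-5p were above 50 with shRNA-Ctr alone. The summed signal of the muscle miRNAs was 897 and 999 in HT-29 and 1152 and 2269 in LS174T, with shRNA-Ascl2 first. Of the 5 blood cell miRNAs, miR-142-3p was at 1383 with shRNA-Ascl2 and 864 with shRNA-Ctr in HT-29 and at 231 and 103 in LS174T, and miR-150 was at 708 in shRNA-Ctr/LS174T cells. On this list, 3 were tested in HT-29 with 0 calls. In LS174T all 5 were tested, miR-142-3p was up-regulated, and miR-142-5p, miR-223 and miR-451 were down-regulated. In that line, miR-142-5p and miR-223 were above 50 with shRNA-Ctr alone. Of all tested probes there, 27.3% were up-regulated and 25.1% down-regulated. In shRNA-Ctr/LS174T cells, miR-133a (54.3), miR-142-5p (54.9) and miR-223 (67.8) did not exceed the highest negative control (69.1). The summed signals of the blood cell list were 1797 and 1212 in HT-29 and 919 and 1286 in LS174T. miR-145 of stromal cells was at most 5.77 on any array and miR-143 at most 53.3, and the endothelial miR-126, at 91.9 with shRNA-Ascl2 and 78.3 with shRNA-Ctr in HT-29, was below 0 on both LS174T arrays. The part of other cell types in the members' ratios was not tested. The epithelial miR-200 family was bright on all arrays, at 1138 or more, so the defining markers of the labelled cell type were present.

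**Figure D5:**
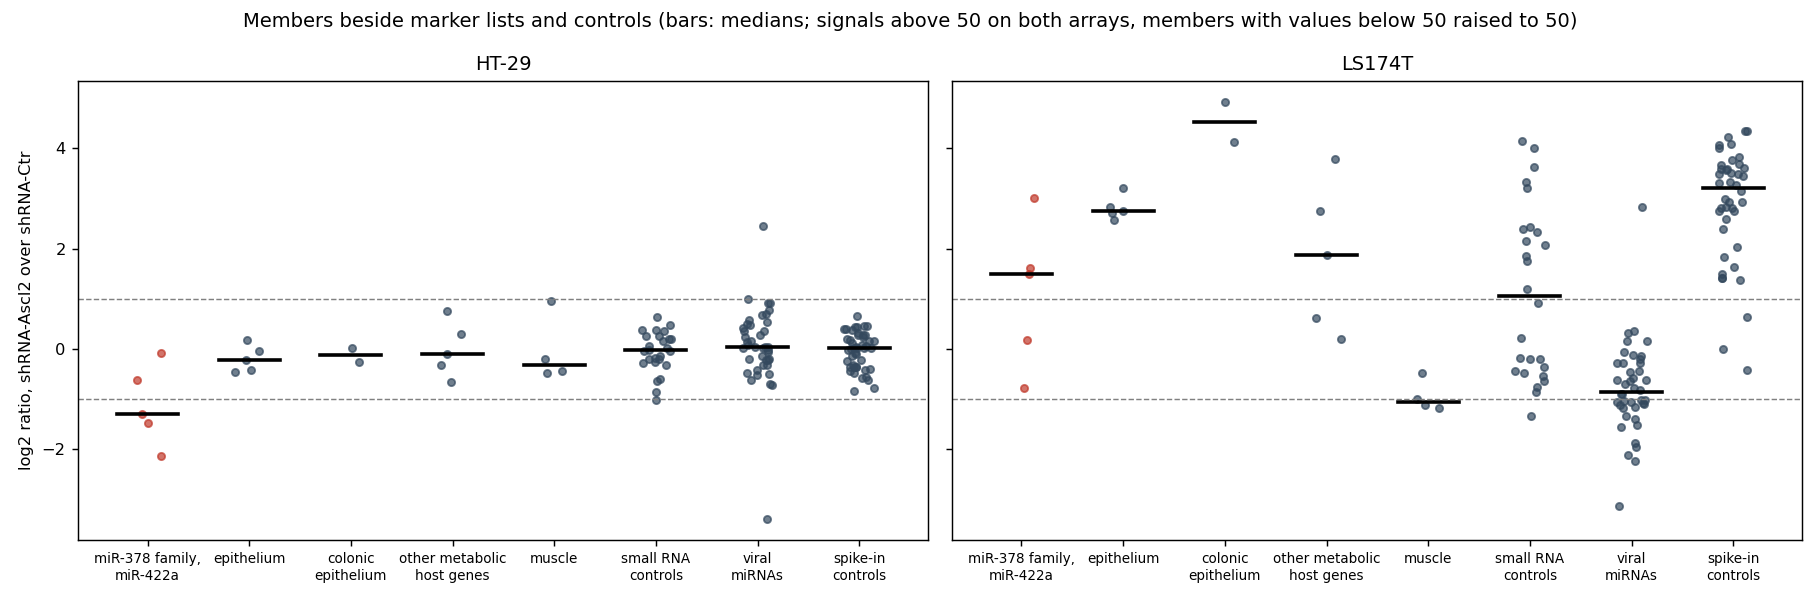
The log2 ratio of shRNA-Ascl2 over shRNA-Ctr in HT-29 (left) and LS174T (right) for the members (red), marker lists and control probes, with each median as a bar and 2-fold dashed. Members are shown with values below 50 raised to 50, and the other sets as probes above 50 on both arrays. In HT-29 the members' median of -1.29 lies below the medians of all other sets shown, which follows from how the members were chosen. In LS174T the spike-ins, both epithelial sets and the other metabolic host genes have medians above the members' 1.50. With values below 50 raised to 50, the median of that metabolic list in LS174T was 1.25.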

How the data were processed

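The authors scanned the arrays and read each spot with GenePix Pro 6.0. The deposited scanner tables hold linear intensities of 12312 spots per array, Hy3 label alone. A deposited table of the authors holds ratios of each probe's median signal to 1 factor per array and was used as an alternative. The authors' 4 lists of 2-fold changes hold fold changes, and neither these nor 24 further columns in them were used. Signals were divided by the array's median over 471 miRNA probes above 50 on all 4 arrays (374.5, 402.75, 327.75 and 341.75 HT-29 before LS174T and shRNA-Ascl2 before shRNA-Ctr) and multiplied by the factors' geometric mean. Of 1276 human probes, 520, 531, 542 and 561 were above 50. The number of arrays limits the precision. The median spot CV was 12.8% to 24.5%. The fit of levels between lines used limma 3.58.1 (log2, Benjamini-Hochberg adjustment). The calling and the limma fit were tested on simulated data that held no block or array effects. Those tests therefore do not cover the block and spike-in differences given above. Members and lists were chosen with earlier results of these data known. Named miRNAs are the 5 members, the 3 probes nearest to miR-378, and list members past 2-fold. Other markers are named for their levels. Scaling, background, spot summary, blocks, limits and fold threshold were varied.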

Additional observations from a re-analysis of the deposited data

Results flagged for a closer look

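The log2 ratio of shRNA-Ascl2 over shRNA-Ctr, with values below 50 raised to 50, was below 0 in HT-29 and above 0 in LS174T for 3 members called in both lines. It was -1.48 and 1.61 for miR-378, -2.14 and 3.00 for miR-378c, and -0.073 and 1.50 for miR-378*, where the HT-29 value is a bound near 0. With 1 array per condition, the difference between the lines was not tested.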

How the results depend on the processing

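The ratios were recomputed under 17 alternatives, 1 of which (values below 50 raised to 50 before calling) was added after the values had been seen. The alternatives overlap, so counts of them do not measure robustness. The authors' table gave the same member values as the median of spots. Other limits and fold thresholds were applied to the reported values, and the looser ones could not lose a call. The fall of miR-378c in HT-29 was called in all 17, that of miR-378 in 14, that of miR-422a in 14 and that of miR-378* in 11. In LS174T the rise of miR-378* was called in 17, that of miR-378c in 16 and that of miR-378 in 15. The calls of miR-378* mostly rest on a shRNA-Ctr signal near 0. With values below 50 raised to 50, its ratio was 1.97 from blocks 19 to 36 and 1.53 with spike-in scaling. Both are short of 2-fold, though both count as called. With spike-in scaling, 1 member was up-regulated and 3 down-regulated in LS174T, and 3 signs turned, miR-378 to -1.57, miR-378c to -0.17 and the uncalled miR-422a to -3.01 on the log2 scale (the spike-ins themselves differed 9.22-fold). In HT-29, 2 members were down-regulated without background subtraction and with normexp, where the dim miR-378* and miR-422a were no longer called (the cause was not tested), and 2 at a fold threshold of 3, where miR-378 and miR-422a were not. At a fold threshold of 1.5, 1 member (miR-378b) was down-regulated in LS174T. Over all probes, the calls ranged from 6 to 88 up-regulated and 20 to 401 down-regulated in HT-29, and from 21 to 302 and 56 to 842 in LS174T. No paired analysis was possible because each condition has 1 array, and no array could be left out of a ratio. Dim signals limit miR-378* and miR-422a.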
